A study of Rattus norvegicus with 9 samples.

Results

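Bone morphogenetic protein (BMP) signalling was followed through 10 genes: the ligand Bmp4, the secreted antagonist Grem1, the receptors Bmpr2, Bmpr1a and Acvrl1, the target genes Id1, Id2 and Id3, and the inhibitory Smads Smad6 and Smad7. They were chosen by name, with earlier results of these data known. All non-control probes bearing one of these names or an accession of one of them were taken. That gave 17 probes, all well above background on all 9 arrays, and 10 of the 22108 genes tested. Grem1, Bmpr2, Bmpr1a, Id2 and Id3 had more than 1 probe, and each gene stands for its brightest probe unless another is named.

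BMP ligands bind a pair of type I and type II receptors at the cell surface. Bmpr2 is a type II receptor, and Bmpr1a (ALK3) and Acvrl1 (ALK1) are type I receptors, which phosphorylate Smad1, Smad5 and Smad8 so that these enter the nucleus with Smad4. The Id genes are direct targets whose products block basic helix-loop-helix transcription factors, Smad6 and Smad7 are induced as feedback inhibitors, and gremlin 1 binds BMP ligands outside the cell. In the pulmonary artery the pathway is best known because inherited loss of Bmpr2 function causes pulmonary arterial hypertension, and Acvrl1 mutations cause hereditary haemorrhagic telangiectasia.

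The cells were pulmonary arterial smooth muscle cells from male SD (Sprague Dawley) rats at culture generation 4. The 3 groups of 3 samples were cells in a normoxic incubator, cells in a sealed chamber with 1% O2 and 5% CO2, and cells in that chamber that also received quercetin, a plant flavonol. All groups shared 24 h without serum followed by 24 h in 10% serum at 37 °C, with 0.1% DMSO as the vehicle of quercetin (dose not given in the sources used here). Total RNA was hybridised to 1-colour Agilent rat arrays, 1 sample each. The series poses what hypoxia changed, what quercetin changed in hypoxia, and how far quercetin-treated cells lay from normoxia. The labels do not say whether replicates were separate cultures or animals, so the p-values describe the spread between these samples alone, and that may be technical.

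Levels are log2 signals relative to the 75th percentile of the same array, so 0 is that percentile and a difference of 1 is a 2-fold difference in signal. Changes were taken between samples within a probe. Levels of different probes were set side by side only to pick a gene's brightest probe, to sum markers and to rank markers by signal. Changes are differences of group means ± standard error with n = 3 arrays a group. Each p is from limma's moderated test with Benjamini-Hochberg adjustment over all 22108 genes, and a gene rose or fell where this was under 0.05. The comparisons share arrays (both hypoxia comparisons use the same 3 hypoxia arrays), so their values stand side by side and were not correlated.

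The 75th percentile of intensity ranged over 627 to 640 (normoxia), 439 to 462 (hypoxia) and 450 to 504 (quercetin), and 65.5% to 74.7%, 53.4% to 67.0% and 54.4% to 69.1% of spots were well above background. Normoxia replicate 3 shared its slide with the hypoxia arrays, the other normoxia arrays had a slide scanned on an earlier day, and quercetin arrays had the third slide. Slide and quercetin therefore cannot be told apart. Of all genes, 7802 were higher and 6392 lower in hypoxia, against 2664 and 10763 when arrays were scaled to 8 spike-in probes. That scaling moved the median change of all genes from 0.10 to -0.40 for hypoxia against normoxia, from -0.08 to 0.02 for quercetin against hypoxia and from 0.04 to -0.37 for quercetin-treated cells against normoxia. All directions below are relative to the 75th percentile. The 5 hypoxia-responsive genes listed as a check of the labels all rose in hypoxia, with a median change of 2.17, and 4 of them fell with quercetin.

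In hypoxia 6 of the 10 BMP genes passed, 5 higher (Bmpr1a, Acvrl1, Id2, Smad6, Smad7) and 1 lower (Grem1), where 64.2% of all genes passed, 35.3% higher and 28.9% lower. The share of members is near that background, and with spike-in scaling 2 were higher and 3 lower. Their median change was 0.46 against 0.10 for all genes. With quercetin in hypoxia 3 passed against 58.4% of all genes (26.9% higher, 31.5% lower): Grem1 and Bmp4 rose and Acvrl1 fell, with a median over the 10 of 0.05 against -0.08. Quercetin-treated hypoxic cells differed from normoxia in 6, with Bmpr1a, Id2, Smad6 and Smad7 higher and Grem1 and Acvrl1 lower, where 44.3% of all genes passed (23% higher, 21.3% lower), and the median was 0.66 against 0.04. With spike-in scaling these were 3 higher and 3 lower. Arrays did not overlap for 7, 6 and 6 of the 10, against 71.6%, 71% and 53.5% of all genes.

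**Figure D1:**
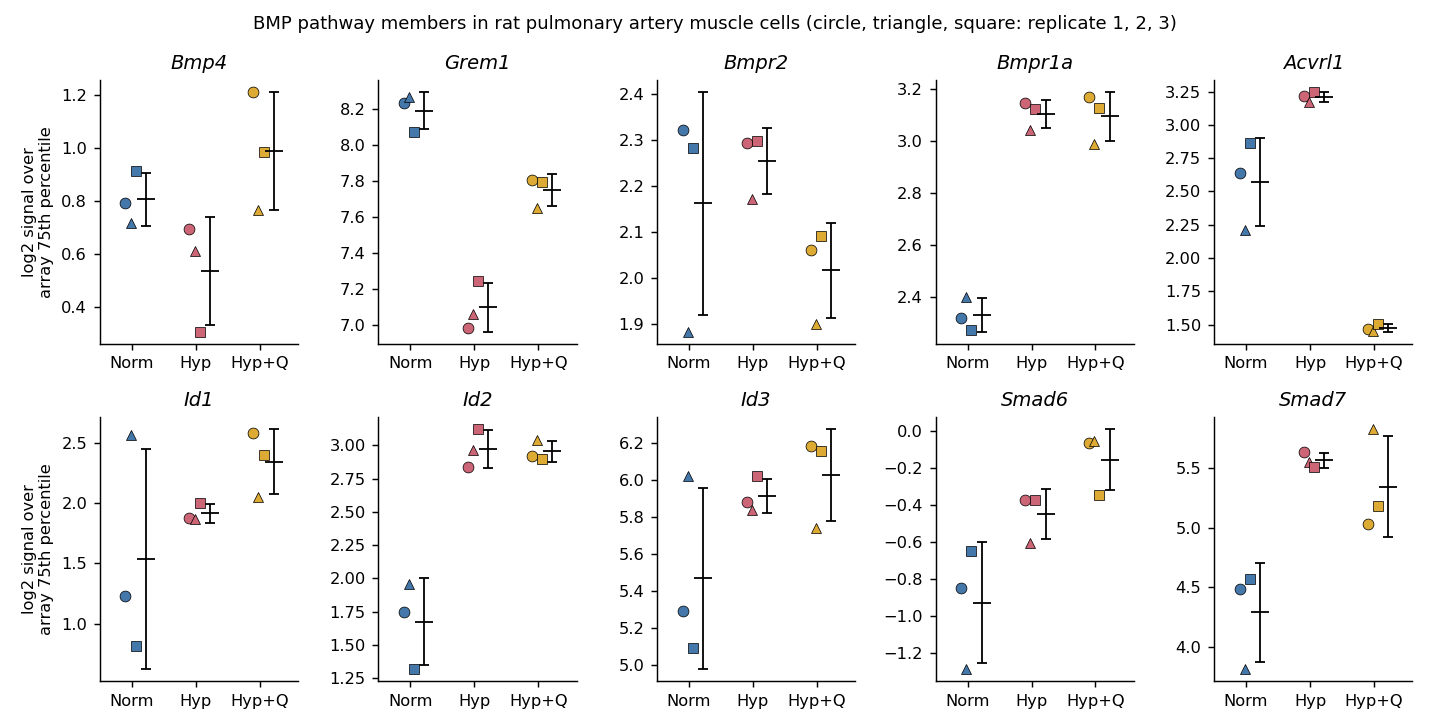
Each panel plots 1 gene's log2 signal relative to the array's 75th percentile for the 3 arrays of normoxia (Norm), hypoxia (Hyp) and hypoxia with quercetin (Hyp+Q); bars are mean ± SD and y axes differ between panels. Grem1 is lowest in hypoxia, Acvrl1 is lowest with quercetin, Id2 and Bmpr1a stay high with quercetin, and normoxia replicate 2 (triangle) sits far above the other normoxia arrays for Id1 and Id3.

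Grem1, the antagonist gremlin 1, was the only one of the 10 that fell in hypoxia, although with spike-in scaling Bmp4 and Bmpr2 did so too. Its brightest probe, 3526 bases into the transcript, read 8.24, 8.27 and 8.07 in normoxia, 6.98, 7.06 and 7.25 in hypoxia and 7.81, 7.65 and 7.79 with quercetin. No array of one group reached into another, and the quercetin arrays lay between the other groups. Grem1 fell by 1.10 ± 0.10 in hypoxia, 2.14-fold (adjusted p = 4.3e-05). With quercetin it rose by 0.65 ± 0.10 over hypoxia, 1.57-fold (adjusted p = 8.4e-04), and remained lower than in normoxia by a log2 change of -0.44 ± 0.10, or 1.36-fold (adjusted p = 0.0086). The last of these differences did not pass with normexp background correction (-0.53, adjusted p = 0.064) or with scan day as a block (-0.32, adjusted p = 0.13).

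A second Grem1 probe, 567 bases into the transcript at chr3:99600383-99600442 (minus strand, rn4), lay far from the first and gave the same order of groups. Its sequence is shown because the Grem1 result does not rest on 1 stretch of the transcript.
Grem1 probe: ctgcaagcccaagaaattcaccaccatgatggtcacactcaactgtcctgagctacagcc
It read 6.31, 6.53 and 6.35 in normoxia, 5.07, 5.03 and 5.21 in hypoxia and 5.94, 5.64 and 5.84 with quercetin. Again the groups did not overlap. Its changes were -1.30 ± 0.11 in hypoxia, 0.70 ± 0.11 for quercetin over hypoxia and -0.59 ± 0.11 for quercetin-treated cells against normoxia (adjusted p = 2.4e-05, 7.5e-04 and 0.0028, limma).

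Bmp4 encodes a BMP ligand that vascular cells secrete. It had 1 probe, at chr15:22283916-22283975 (minus strand, rn4), 730 bases into the transcript, shown as the only measure of the ligand.
Bmp4 probe: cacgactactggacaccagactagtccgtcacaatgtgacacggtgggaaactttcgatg
Bmp4 read 0.79, 0.71 and 0.91 in normoxia, 0.69, 0.61 and 0.31 in hypoxia and 1.21, 0.76 and 0.98 with quercetin. The hypoxia arrays were the lowest, by a narrow gap to normoxia replicate 2 at 0.71. The hypoxia change was -0.27 ± 0.14 and did not pass (adjusted p = 0.13; 95% interval -0.60 to 0.06), but it was -0.77 with spike-in scaling (adjusted p = 0.0044). With quercetin Bmp4 rose by 0.45 ± 0.14 over hypoxia, 1.37-fold (adjusted p = 0.026). Hypoxia replicate 3 and quercetin replicate 1 are the extremes of that difference: without the first the adjusted p was 0.089, without the second 0.086, and without quercetin replicate 3 it was 0.065. It also missed the threshold with normexp correction (0.37, adjusted p = 0.15) and without the filter on dim probes (0.45, adjusted p = 0.066).

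Bmpr2, the type II receptor, passed in none of the 3 comparisons. Its brighter probe lies at chr9:58433667-58433726 and the other at chr9:58379751-58379810 (plus strand, rn4), 2936 and 705 bases into the transcript, and both are shown because they gave like changes from distant parts of it.
Bmpr2 probe, brighter: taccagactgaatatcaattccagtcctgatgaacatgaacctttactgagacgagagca
Bmpr2 probe, other: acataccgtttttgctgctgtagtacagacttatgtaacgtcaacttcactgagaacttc
The brighter probe read 2.32, 1.88 and 2.28 in normoxia, 2.29, 2.17 and 2.30 in hypoxia and 2.06, 1.90 and 2.09 with quercetin. Normoxia replicate 2 lay below all other arrays, and the quercetin arrays lay below the hypoxia arrays. The hypoxia change was 0.09 ± 0.13 (adjusted p = 0.55), with a 95% interval of -0.20 to 0.39. With spike-in scaling it turned to -0.41 (adjusted p = 0.041). For quercetin over hypoxia it was -0.24 ± 0.13 (adjusted p = 0.15, interval -0.53 to 0.06), and for quercetin-treated cells against normoxia -0.15 ± 0.13 (adjusted p = 0.40, interval -0.44 to 0.15). Without normoxia replicate 2 these last changes passed, at -0.24 (adjusted p = 0.033) and -0.29 (adjusted p = 0.035), and the first of them also passed with only the 2 groups in the fit (adjusted p = 0.047). With spike-in scaling the difference of quercetin-treated cells from normoxia was -0.55 and passed (adjusted p = 0.014). The other probe gave 0.10 ± 0.12, -0.16 ± 0.12 and -0.06 ± 0.12 in the same order.

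Bmpr1a, the type I receptor ALK3, rose in hypoxia and stayed high with quercetin at its brighter probe. That probe read 2.32, 2.40 and 2.27 in normoxia, 3.15, 3.04 and 3.12 in hypoxia and 3.17, 2.99 and 3.13 with quercetin. All 6 hypoxic arrays, with or without quercetin, were above all normoxia arrays, and the hypoxia and quercetin arrays overlapped. The rise was 0.77 ± 0.09 in hypoxia, 1.71-fold (adjusted p = 1.0e-04), and 0.76 ± 0.09 for quercetin-treated cells against normoxia, 1.70-fold (adjusted p = 2.3e-04). Quercetin over hypoxia gave -0.01 ± 0.09 (adjusted p = 0.92), with a 95% interval of -0.21 to 0.18. With spike-in scaling the hypoxia change was 0.27 and did not pass (adjusted p = 0.094).

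The dimmer Bmpr1a probe did not follow the brighter one. It starts 976 bases into the transcript, against 2722 for the brighter probe, at chr16:10073100-10073159 (minus strand, rn4), and is shown because the call depends on which probe is read.
Bmpr1a probe, dimmer: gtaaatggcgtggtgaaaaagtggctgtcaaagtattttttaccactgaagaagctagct
It read -0.93, -1.41 and -1.03 in normoxia, -0.97, -0.98 and -1.02 in hypoxia and -0.44, -0.69 and -0.54 with quercetin. Here normoxia and hypoxia overlapped and only the quercetin arrays stood higher. The hypoxia change was 0.13 ± 0.13 (adjusted p = 0.40), while quercetin over hypoxia gave 0.43 ± 0.13 (adjusted p = 0.021) and quercetin against normoxia 0.57 ± 0.13 (adjusted p = 0.0085, limma). Both probes placed quercetin-treated cells above normoxia, while the calls for hypoxia and for quercetin over hypoxia depended on the probe. Which of them reports the Bmpr1a transcript was not tested.

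Acvrl1, the type I receptor ALK1, showed the largest change of any of the 10 genes in a comparison, a fall with quercetin. Its single probe, at chr7:139884383-139884442 (plus strand, rn4), read 2.64, 2.21 and 2.86 in normoxia, 3.22, 3.17 and 3.25 in hypoxia and 1.47, 1.45 and 1.5 with quercetin. The groups did not overlap, and the hypoxia and quercetin arrays each lay within a narrow band (SD 0.04 and 0.03, n = 3) while normoxia spread more (SD 0.33, n = 3). Acvrl1 fell by 1.74 ± 0.15 with quercetin over hypoxia, 3.33-fold (adjusted p = 3.9e-05), and lay below normoxia with a change of -1.10 ± 0.15, or 2.14-fold (adjusted p = 6.6e-04). In hypoxia it rose by 0.64 ± 0.15, 1.56-fold (adjusted p = 0.0059). That rise was lost with slide as a block, which sets the hypoxia arrays against normoxia replicate 3 alone (0.35, adjusted p = 0.19), with scan day as a block (0.35, adjusted p = 0.12), with spike-in scaling (0.14, adjusted p = 0.48) and with normexp correction (0.64, adjusted p = 0.055). The fall with quercetin was between -1.76 and -1.61 in all 21 alternatives run for it, with an adjusted p of at most 7.5e-04.

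Most smooth muscle markers moved in the same directions as Acvrl1. Of 8 smooth muscle markers 7 were tested (no probe bore the name Acta2): 5 rose and none fell in hypoxia, none rose and 6 fell with quercetin over hypoxia. Their summed signal, in multiples of the 75th percentile, was 321 to 343 on the hypoxia arrays, against 137 to 208 on those of normoxia and 95.3 to 113 on those of quercetin. Most of this sum came from Tagln, encoding the actin-binding protein transgelin. Tagln had the highest mean signal of the list and changed by 1.03 ± 0.15 and -1.68 ± 0.15 in these comparisons. Myocd, encoding the smooth muscle coactivator myocardin, had the lowest and changed by 0.95 ± 0.15 and -0.74 ± 0.15. ALK1 is best known from endothelium, and of 6 endothelial markers Pecam1, Tek and Tie1 stayed below the background threshold on all 9 arrays and Vwf passed it on 2 normoxia arrays only. The other two, Cdh5 and Kdr, summed to 0.134 to 0.160 on the hypoxia arrays, against 0.0962 to 0.112 (normoxia) and 0.0601 to 0.111 (quercetin), with Cdh5 changing by 0.64 ± 0.25 (adjusted p = 0.055) and -1.22 ± 0.25 (adjusted p = 0.0036) and Kdr by 0.13 ± 0.21 and 0.30 ± 0.21 (adjusted p = 0.60 and 0.25). Each was well above background on 2 of 3 quercetin arrays, and Kdr on 2 of 3 hypoxia arrays. In bulk RNA, fewer cells of a type and less RNA per cell cannot be told apart.

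Other marker lists moved too. Of 6 fibroblast markers, all tested, 1 rose and 3 fell in hypoxia and 4 fell with quercetin over hypoxia. Their sums were 123 to 225, 156 to 163 and 49.0 to 62.2 in normoxia, hypoxia and quercetin. Most of these sums came from S100a4, the brightest, which changed by 0.09 ± 0.25 and -1.84 ± 0.25 in these comparisons, so they hide the dimmer markers. Dcn had the lowest mean signal and changed by -4.24 ± 0.46 and -0.17 ± 0.46, and was well above background on 2 of 3 arrays in each hypoxic group. The 3 epithelial markers tested of 6, all keratins, rose in hypoxia and fell with quercetin (sums 3.69 to 5.42, 39.4 to 46.8 and 7.36 to 8.93), while Epcam, Cdh1 and Krt19 passed the background threshold on none. Of 6 leukocyte markers 4 were tested. In hypoxia 2 rose, and changes over all 4 ran from -0.28 to 4.10, the last from a normoxia mean of -5.21. With quercetin over hypoxia 1 rose and 2 fell, and changes over all 4 ran from -1.65 to 1.5. Sums of the 4 were 1.12 to 1.42, 1.76 to 1.95 and 1.28 to 1.56, and Itgam and Cd3e were not well above background. The part of all these marker genes in the changes of the BMP genes was not tested.

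**Figure D2:**
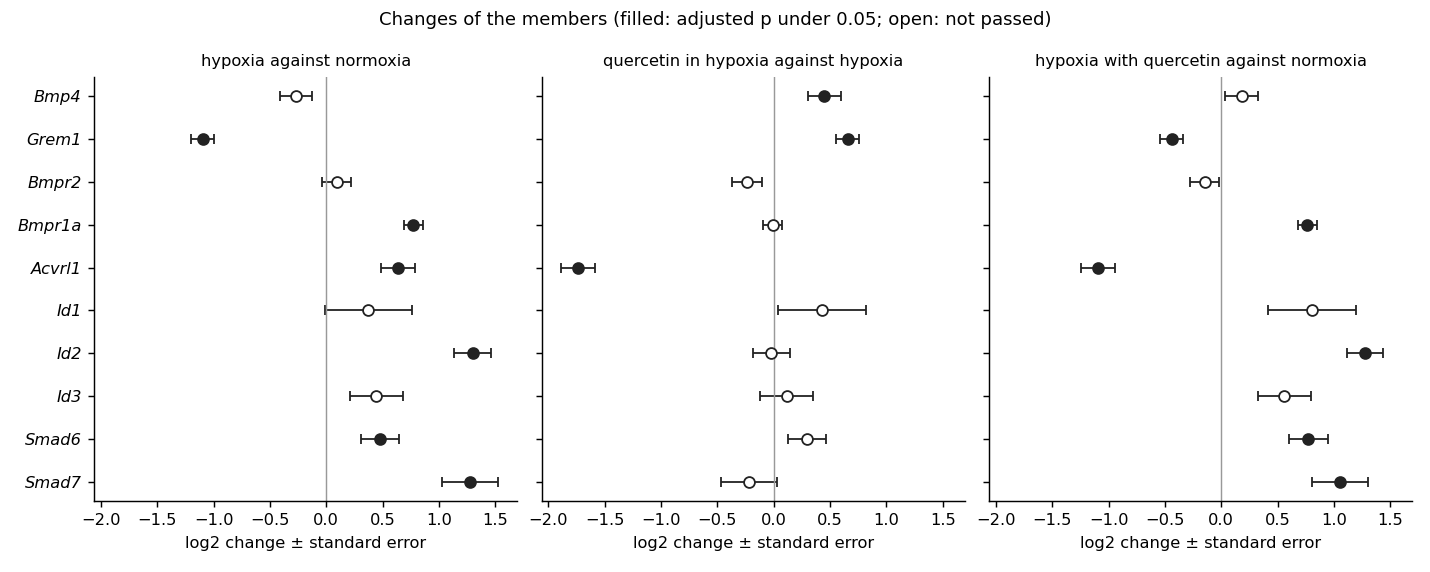
Points are log2 changes of the 10 genes with standard errors as bars, in 3 panels for the 3 comparisons; filled points passed an adjusted p of 0.05 and open points did not. Id2, Smad7, Smad6 and Bmpr1a are filled to the right of 0 in both comparisons with normoxia, Acvrl1 is far to the left in both quercetin panels, and Grem1 is left of 0 against normoxia and right of it for quercetin over hypoxia.

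Among the Id genes, which encode inhibitors of differentiation, Id2 rose in hypoxia and did not come back with quercetin. Its brightest probe read 1.75, 1.96 and 1.32 in normoxia, 2.84, 2.96 and 3.12 in hypoxia and 2.92, 3.04 and 2.90 with quercetin. All hypoxic arrays were above all normoxia arrays, and hypoxia and quercetin overlapped. Id2 rose by 1.30 ± 0.16 in hypoxia, 2.46-fold (adjusted p = 2.0e-04), and lay 1.28 ± 0.16 above normoxia with quercetin, 2.43-fold (adjusted p = 4.4e-04). Quercetin over hypoxia gave -0.02 ± 0.16 (adjusted p = 0.92), with a 95% interval of -0.39 to 0.35. Over the 22 alternatives run for it the hypoxia rise was 0.80 to 1.65 and always passed, and with slide as a block it was 1.65 (adjusted p = 0.0029).

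Id2 had 3 probes, and the one nearest the start of the transcript is shown, at chr6:42783112-42783171 (minus strand, rn4), 135 bases in.
Id2 probe: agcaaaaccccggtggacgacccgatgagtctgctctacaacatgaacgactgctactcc
It read -0.04, 0.45 and 0.13 in normoxia, 1.11, 1.06 and 1.14 in hypoxia and 1.26, 1.33 and 1.18 with quercetin. At this probe the quercetin arrays lay just above the hypoxia arrays. The probe 409 bases in read 1.06, 1.72 and 0.81, then 2.17, 2.23 and 2.26, then 2.51, 2.58 and 2.46. These probes rose by 0.93 ± 0.12 and 1.03 ± 0.20 in hypoxia (adjusted p = 3.0e-04 and 0.0024, limma), and quercetin over hypoxia gave 0.15 ± 0.12 and 0.30 ± 0.20, which did not pass. All 3 probes thus rose in hypoxia.

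Id1 is the Id gene most used as a readout of BMP signalling, and its normoxia arrays did not agree among themselves. Its single probe, at chr3:143087157-143087216 (plus strand, rn4), read 1.23, 2.56 and 0.82 in normoxia, 1.87, 1.87 and 2.00 in hypoxia and 2.58, 2.05 and 2.40 with quercetin. Normoxia replicate 2 was above every hypoxia array and the other two normoxia arrays were below every one. The hypoxia change was 0.37 ± 0.39 (adjusted p = 0.42; 95% interval -0.51 to 1.26) and the change against normoxia with quercetin 0.80 ± 0.39 (adjusted p = 0.13; interval -0.09 to 1.69). Without normoxia replicate 2 both passed, at 0.89 (adjusted p = 0.0046) and 1.32 (adjusted p = 0.0013). The second also passed with scan day as a block (1.52, adjusted p = 0.043), and the first was -0.13 with spike-in scaling (adjusted p = 0.80). Quercetin arrays lay above all hypoxia arrays, at 0.43 ± 0.39 (adjusted p = 0.37), and this passed where only those 2 groups were fitted (adjusted p = 0.041).

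Id3 followed the pattern of Id1 at a smaller size. Its brightest probe read 5.29, 6.02 and 5.09 in normoxia, 5.88, 5.84 and 6.02 in hypoxia and 6.19, 5.74 and 6.16 with quercetin. Normoxia replicate 2 was again level with the hypoxic arrays. The changes were 0.45 ± 0.23 in hypoxia (adjusted p = 0.13), 0.11 ± 0.23 with quercetin over hypoxia (adjusted p = 0.70) and 0.56 ± 0.23 with quercetin against normoxia (adjusted p = 0.084), so none passed. Their 95% intervals were -0.09 to 0.98, -0.42 to 0.65 and 0.03 to 1.09. Without normoxia replicate 2 the first and the last were 0.72 (adjusted p = 0.0053) and 0.84 (adjusted p = 0.0042), and with spike-in scaling the hypoxia change was -0.06 (adjusted p = 0.86).

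The 3 Id3 probes agreed, and the one 335 bases into the transcript is shown to stand for them.
Id3 probe: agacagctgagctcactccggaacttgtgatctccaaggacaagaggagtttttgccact
It read 4.65, 5.35 and 4.55 in normoxia, 5.30, 5.34 and 5.34 in hypoxia and 5.57, 5.12 and 5.53 with quercetin. Normoxia replicate 2 at 5.35 was above all hypoxia arrays here too. This probe and the one 318 bases in both gave 0.48 in hypoxia, but they share most of their bases and are not separate stretches. On the rn4 genome the 60 bases of the probe shown span 154934473 to 154934647 of chromosome 5, a stretch of 175 bases, so the probe crosses an intron.

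**Figure D3:**
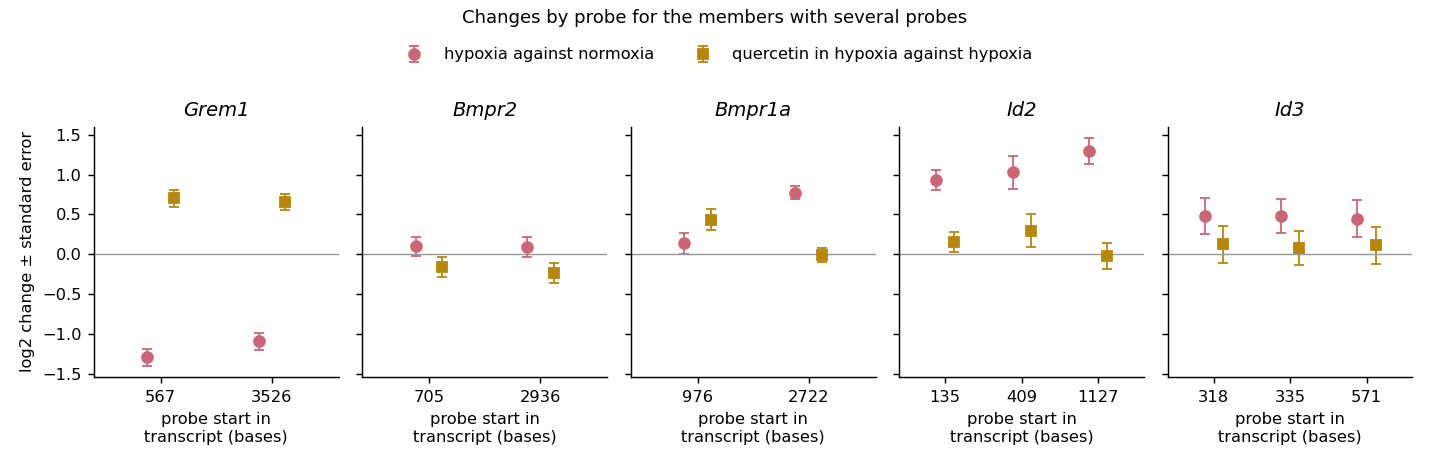
Points are log2 changes with standard errors for each probe of the 5 genes with several probes, placed by the probe's first base in the transcript; circles compare hypoxia with normoxia and squares quercetin with hypoxia. The probes lie at like heights for Grem1, Bmpr2, Id2 and Id3, while for Bmpr1a the hypoxia change is 0.13 at base 976 and 0.77 at base 2722.

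Smad7, the inhibitory Smad that blocks type I receptors of both the BMP and TGF-β branches, rose in hypoxia. Its single probe read 4.48, 3.81 and 4.57 in normoxia, 5.63, 5.55 and 5.51 in hypoxia and 5.03, 5.83 and 5.18 with quercetin. The hypoxia arrays lay close together and above all normoxia arrays, and the quercetin arrays spread around them, with replicate 2 highest and the others between the groups. Smad7 rose by 1.28 ± 0.25 in hypoxia, 2.42-fold (adjusted p = 0.0023), and lay 1.06 ± 0.25 above normoxia with quercetin, 2.08-fold (adjusted p = 0.0092). Quercetin over hypoxia gave -0.22 ± 0.25 (adjusted p = 0.47), with a 95% interval of -0.79 to 0.35. Against normoxia replicate 3 alone the hypoxia rise was 0.99 (adjusted p = 0.036 with slide and 0.0505 with scan day as a block), and the quercetin difference from normoxia did not pass with scan day as a block (0.77, adjusted p = 0.14) or with normexp correction (0.96, adjusted p = 0.11).

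Smad6, the inhibitory Smad most selective for BMP receptors, rose in hypoxia by a change that many alternatives did not keep. Its single probe, 866 bases into the transcript, spans 68199857 to 68204156 of chromosome 8 (minus strand, rn4), so its 60 bases cross an intron.
Smad6 probe: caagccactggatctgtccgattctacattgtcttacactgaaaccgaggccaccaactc
Smad6 read -0.85, -1.28 and -0.64 in normoxia, -0.37, -0.60 and -0.37 in hypoxia and -0.07, -0.05 and -0.34 with quercetin. The groups did not overlap and the order was normoxia, hypoxia, quercetin, although gaps between neighbours were narrow. It rose by 0.48 ± 0.17 in hypoxia, 1.39-fold (adjusted p = 0.036), and lay 0.77 ± 0.17 above normoxia with quercetin, 1.71-fold (adjusted p = 0.0067). Quercetin over hypoxia gave 0.29 ± 0.17 (adjusted p = 0.17, 95% interval -0.10 to 0.69). The hypoxia rise kept its sign but lost the call in 10 of 22 alternatives. Among them were slide as a block (0.20, adjusted p = 0.49) and leaving out normoxia replicate 2 (0.30, adjusted p = 0.084). In a further 1, spike-in scaling, the change turned to -0.03 (adjusted p = 0.90). The difference from normoxia with quercetin did not pass with spike-in scaling (0.36, adjusted p = 0.085) or scan day as a block (0.49, adjusted p = 0.12).

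**Figure D4:**
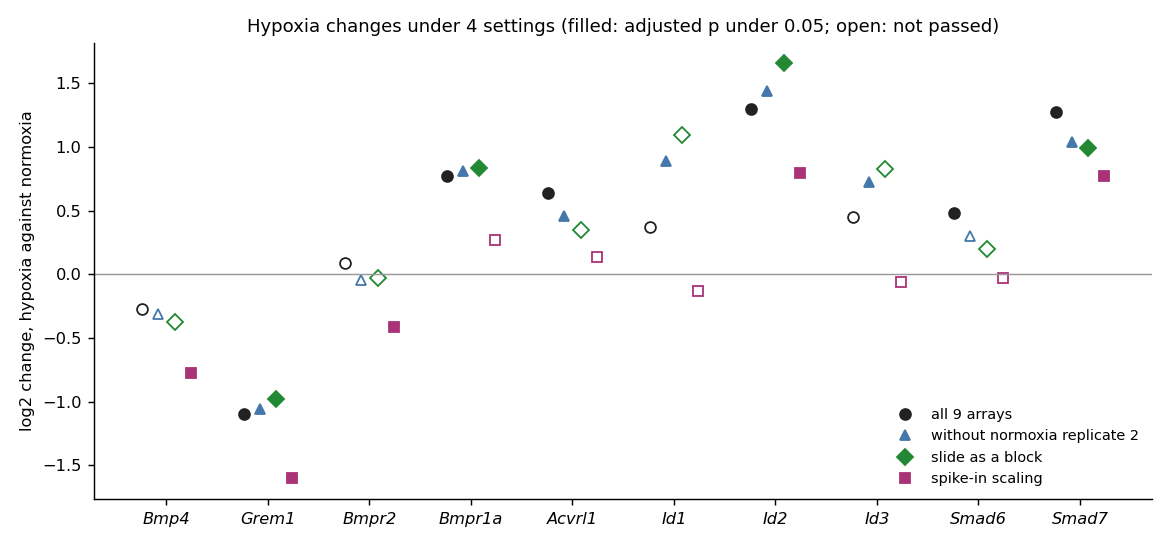
Log2 changes of the 10 genes in hypoxia against normoxia are drawn for all 9 arrays, without normoxia replicate 2, with slide as a block, and with spike-in scaling; filled symbols passed an adjusted p of 0.05. Grem1, Id2 and Smad7 are filled in all 4. Bmpr1a is open with spike-in scaling, Acvrl1 is open with that and with slide as a block, and Smad6 is filled only for all 9 arrays. Id1 and Id3 are filled only without normoxia replicate 2, and Bmp4 and Bmpr2 only with spike-in scaling, below 0.

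Other genes of the pathway moved both ways, in shares near those of all genes. Of 47 listed, 43 had a probe and 36 were tested: 12 rose, 13 fell and 11 did not pass in hypoxia, with a median of 0.13. With spike-in scaling 3 of them were higher and 16 lower. With quercetin over hypoxia 13 rose, 7 fell and 16 did not pass (median 0.05). Against normoxia, quercetin-treated cells had 8 higher, 6 lower and 22 that did not pass (median 0.11), or 4 higher and 12 lower with spike-in scaling. Of all genes 64.2%, 58.4% and 44.3% passed in these comparisons in the same order, with 35.3%, 26.9% and 23% higher. The counts by role below stand against the same shares. Bmp5, Chrdl1, Sost, Sostdc1, Rgma, Hjv and Smad9 were too dim to be tested, since no group had all its arrays well above background.

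Of 9 antagonists tested beside Grem1, 4 rose and 4 fell in hypoxia, and 6 rose and 2 fell with quercetin over hypoxia. Fst (follistatin, which binds activins and BMPs) fell by 1.61 ± 0.12 in hypoxia and rose by 1.63 ± 0.12 with quercetin (adjusted p = 1.5e-05 and 1.8e-05). Bambi, a decoy receptor without a kinase, fell by 1.51 ± 0.12 and rose by 1.62 ± 0.12 (adjusted p = 2.0e-05 and 1.8e-05). Both thus had Grem1's pattern, and so did Bmper (-2.10 ± 0.09 and 1.09 ± 0.09) and Twsg1 (-1.75 ± 0.07 and 0.44 ± 0.07), which modulate the binding of BMPs to chordin. Nog (noggin) and Chrd (chordin), which bind BMPs outside the cell, went the other way in hypoxia, rising by 2.38 ± 0.20 (adjusted p = 2.6e-05) and 2.16 ± 0.12 (adjusted p = 5.0e-06). With quercetin Chrd changed by -1.14 ± 0.12 (adjusted p = 1.2e-04) and Nog by -0.22 ± 0.20 (adjusted p = 0.37). A second Chrd probe gave 1.47 in hypoxia, and a second Twsg1 probe gave -2.48. Nog had 3 probes, of which 1 was kept, and that probe was dim in normoxia (mean -3.35). Nbl1, a further secreted antagonist, changed by 0.10 ± 0.13 in hypoxia (adjusted p = 0.52) and rose by 1.66 ± 0.13 with quercetin (adjusted p = 2.0e-05).

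Of 7 other ligands, 4 rose and 1 fell in hypoxia, and 2 rose and 3 fell with quercetin over hypoxia. Bmp2, a ligand close to Bmp4 in sequence, was the exception and fell by 2.48 ± 0.30 (adjusted p = 1.8e-04). It then rose by 1.69 ± 0.30 with quercetin (adjusted p = 0.0017). Bmp3 rose by 0.86 ± 0.12 and Bmp7 by 0.58 ± 0.14 in hypoxia (adjusted p = 3.7e-04 and 0.0074), with -0.81 ± 0.12 and -0.32 ± 0.14 for quercetin over hypoxia (adjusted p = 6.0e-04 and 0.081). Bmp6 changed by -0.90 ± 0.18 and Gdf6 by 0.47 ± 0.17 with quercetin (adjusted p = 0.0029 and 0.039). Bmp7 and Gdf6 were dim, with normoxia means of -2.68 and -3.30, and so were the risers not named here. All of these were still well above background on all arrays. The calls were lost in 8 of 21 alternatives for Gdf6 and in 1 of 21 for Bmp6. The rises in hypoxia were lost in 4 of 22 for Bmp7 and in 1 of 22 for Bmp3.

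Among 5 further receptors and co-receptors 1 rose and 3 fell in hypoxia, and 1 fell with quercetin over hypoxia. Acvr1 (ALK2), a type I receptor, fell by 0.82 ± 0.12 in hypoxia (adjusted p = 4.9e-04), the opposite sign to Bmpr1a and Acvrl1, and gave -0.01 ± 0.12 with quercetin over hypoxia. Bmpr1b (ALK6) was dim, above background on 2 of 3 arrays in each hypoxic group, and fell by 1.67 ± 0.26 (adjusted p = 7.7e-04). That call was lost in 1 of 21 alternatives. Acvr2b, a type II receptor, rose by 1.09 ± 0.33 in hypoxia (adjusted p = 0.019), a call lost in 5 of 22 alternatives. Eng (endoglin), the co-receptor that works with ALK1, changed by 0.54 ± 0.35 in hypoxia (adjusted p = 0.21) and -0.98 ± 0.35 with quercetin (adjusted p = 0.042), and the second call was lost in 13 of 21 alternatives.

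Downstream, Smad4 rose by 0.41 ± 0.14 in hypoxia (adjusted p = 0.029). That call was lost in 9 of 22 alternatives, and in a further 1, spike-in scaling, the change turned to -0.10. Smad5 fell by 1.37 ± 0.13 (adjusted p = 5.4e-05), while its second probe gave -0.22 (adjusted p = 0.33, limma). The ubiquitin ligases Smurf1 and Smurf2, which Smad6 and Smad7 recruit to receptors, rose in hypoxia by 0.63 ± 0.07 and 0.71 ± 0.11 (adjusted p = 1.5e-04 and 6.4e-04), with 2.10 at a second Smurf1 probe. The Smurf1 and Smurf2 calls were each lost in 1 of 22 alternatives, and the lowest changes were 0.13 and 0.20. With quercetin over hypoxia Smurf2 fell by 0.68 ± 0.11 (adjusted p = 9.2e-04), a call lost in 2 of 21 alternatives. Smurf1 gave -0.11 ± 0.07 (adjusted p = 0.25), and -0.95 at its second probe. Ski, a repressor of Smad transcription, fell by 0.92 ± 0.10 in hypoxia and rose by 0.70 ± 0.10 with quercetin (adjusted p = 7.5e-05 and 4.1e-04). Its rise was lost in 1 of 21 alternatives. Another Ski probe gave -0.42 and 0.17 (adjusted p = 0.0051 and 0.16, limma), while its remaining probes passed in both comparisons. Of 6 target genes outside the members, none rose and 2 fell in hypoxia at their brightest probes. The fallers were the homeobox genes Dlx5 and Msx1, by 1.54 ± 0.17 and 0.95 ± 0.08 (adjusted p = 8.9e-05 and 3.1e-05). Both rose with quercetin, by 1.64 ± 0.17 and 1.36 ± 0.08 (adjusted p = 7.9e-05 and 9.1e-06). Dimmer probes of some other targets rose or fell in hypoxia (see the end). Id2 had the opposite sign in hypoxia to Dlx5 and Msx1.

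**Figure D5:**
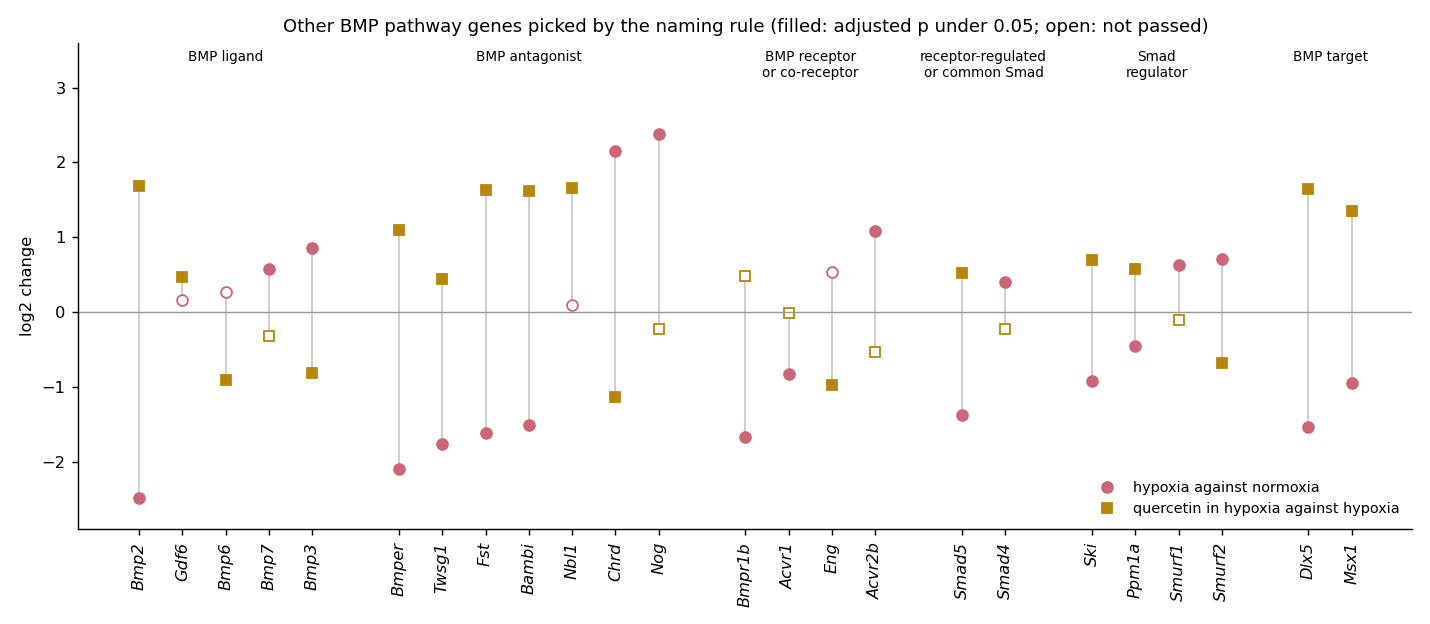
Log2 changes of the other pathway genes picked by the naming rule (in each role and comparison, up to 3 with the smallest adjusted p that passed) are grouped by role, with circles for hypoxia against normoxia and squares for quercetin over hypoxia; filled symbols passed an adjusted p of 0.05. Bmp2, Bmper, Fst, Bambi, Dlx5 and Msx1 are among those with a circle below 0 and a square above it, the pattern of Grem1. Chrd, Bmp3 and Smurf2 have the reverse with both symbols filled. The comparisons share the hypoxia arrays.

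The genes whose levels ran most like each member over the 9 arrays were found by Pearson correlation among tested genes with a symbol, as a description only, since all share arrays and groups. For Grem1 they were B4galt6, C16h19orf44 and Wars1 (r = 0.997, 0.995 and 0.995), for Acvrl1 Fbxo5, Mettl7a and Plekha4 (0.996, 0.995 and 0.994), and for Bmpr1a Fggy, Pdia3 and Tmem74b (0.997, 0.996 and 0.993). For Id2 they were Prkag1, Cbr4 and Hnrnpc (0.990, 0.988 and 0.983) and for Smad7 Uchl5, Clk3 and Edc3 (0.993, 0.989 and 0.987). Bmpr2 ran most like Soat1, Slc44a2 and Neo1 (0.965, 0.962 and 0.939), and Smad6 most like Galnt10, Kcnk5 and St6gal1 (0.973, 0.966 and 0.966). Id1 had Polr2j, Med31 and Nadsyn1 (0.978, 0.976 and 0.974), Id3 had Cpt2, Vps52 and Tmem126b (0.982, 0.980 and 0.979), and Bmp4 had Tonsl, Mocs3 and Adam4 (0.914, 0.910 and 0.902). No member was among the 3 of another.

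Promoter sequences from RefSeq (assembly GRCr8, unlike the rn4 probe positions) were matched by symbol for 8 of the 10 members, all but Acvrl1 and Smad6. The 250 bases before each start were searched on both strands for GGCGCC and GTCTG, letters that Smad proteins bind, and for ACGTG and GCGTG, cores of hypoxia response elements. Promoters of 3 members are shown, for the member that fell in hypoxia, for Id2, whose 3 probes all rose, and for Id1, with matches in capitals. Of the Id1 window the first 211 bases are shown, since the rest lie inside the annotated gene. The end of the Id3 window and the whole Bmp4 and Bmpr2 windows lie inside the annotated genes too.
Grem1 promoter, chr3:120978320-120978569, minus strand: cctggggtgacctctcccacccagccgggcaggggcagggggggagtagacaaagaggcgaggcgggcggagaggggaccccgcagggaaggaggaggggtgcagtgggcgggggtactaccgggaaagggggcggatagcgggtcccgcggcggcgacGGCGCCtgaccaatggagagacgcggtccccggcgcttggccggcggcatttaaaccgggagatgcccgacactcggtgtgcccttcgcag
Id2 promoter, chr6:47470996-47471245, minus strand: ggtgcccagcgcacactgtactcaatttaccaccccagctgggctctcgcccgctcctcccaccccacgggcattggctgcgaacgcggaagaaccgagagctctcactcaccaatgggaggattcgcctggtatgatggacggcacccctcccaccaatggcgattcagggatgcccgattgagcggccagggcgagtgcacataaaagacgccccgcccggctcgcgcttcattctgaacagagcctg
Id1 promoter, chr3:161671314-161671524, plus strand: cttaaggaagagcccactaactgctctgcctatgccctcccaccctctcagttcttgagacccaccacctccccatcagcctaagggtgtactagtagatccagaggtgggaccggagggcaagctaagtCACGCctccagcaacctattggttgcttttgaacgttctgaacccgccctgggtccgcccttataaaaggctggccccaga
GGCGCC was found for Grem1, 91 bases before the start, and for Smad7, against 8.69% of the 33469 promoters of this table. GCGTG was found for Id1, Id3 and Smad7, against 25.9%. For Id1 the match lies on the other strand, 120 bases before the start, and for Smad7 it shares bases with a match of the first motif. Bmp4 was the member with GTCTG, against 42.9%, and also with ACGTG, against 16.6%, where overlapping matches lie on both strands. The Bmp4 matches and the Id3 match lie inside the annotated genes. Id2, Bmpr1a and Bmpr2 had no match. These are matches of letters, and no binding was measured.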

How the data were processed

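The 10 genes and all gene lists were chosen with earlier results of these data known. Scanner output of Agilent Feature Extraction 10.7.3.1, 1 channel an array per the file headers, holds a processed intensity with background subtracted. The labels describe a microRNA labelling kit while the deposited scanner files name a gene expression protocol, so the labelling chemistry is uncertain. The log2 table deposited by the authors, made by steps not given in the sources used here, served as an alternative only (correlation of 0.991 to 0.9998 with the log2 intensity of the same array).

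From the intensities, control spots were dropped, spots with an outlier mark (71 to 148 an array) were set missing, log2 values were averaged by probe and the 75th percentile of each array was subtracted. Kept probes (26655 of 41012, or 65.0%) had every array of at least 1 group well above background. Names came from RefSeq GRCr8 through the accession (18028 probes), a current symbol (3168) or a synonym (400), otherwise from the file (19416). All 9 arrays entered 1 fit of 3 group means with limma 3.58.1 in R 4.3.3 (lmFit and eBayes, 6 residual and 2.30 prior degrees of freedom), two-sided, checked on simulated data. The number of arrays limits the precision.

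The text names all 10 members with every probe. Of the pathway list it names, per role and comparison, up to 3 genes with the smallest adjusted p among those that passed. It also names the 3 genes most correlated with each member and, of each marker list, the genes with the highest and lowest mean signal and those not well above background, of which only part is printed. Alternatives were normexp background correction (offset 50), other scalings and filters, the mean of a gene's probes, the deposited table, fits of 2 groups, blocks for slide, scan day and replicate number, and leaving out arrays. Slide as a random block was added after seeing the data. The values of 1 listed gene are not reported here.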

Additional observations from a re-analysis of the deposited data

How the results depend on the processing

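For the 10 genes, 30 changes were recomputed in 640 fits: 600 stayed on their side of the threshold, 27 lost the call, 11 gained it and 2 turned sign where the change passed before or after. Changes that passed in neither fit were not counted as turned. For 99 changes of other named genes the counts were 1979, 87, 32 and 5 of 2103. The number of members passing in hypoxia fell from 6 to 3 with scan day as a block, and that for quercetin over hypoxia rose from 3 to 5 with only the 2 groups fitted. Leaving out arrays gave 5 to 7, 2 to 4 and 6 to 9 members in the 3 comparisons, the highest always without normoxia replicate 2. The pathway list had 8 in place of 14 genes for quercetin against normoxia with normexp correction, and 11 to 17 with arrays left out. Spike-in scaling turned the sign of Bmpr2 (-0.41), Smad6 (-0.026) and Smad4 (-0.10) in hypoxia, and of Fst (-0.39), Smurf2 (-0.38), Ppm1a (-0.29) and Msx1 (-0.0046) for quercetin against normoxia. The cause was not tested.

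Replicate numbers did not pair the samples: deviations of same-numbered arrays correlated at -0.27 to 0.02. With the replicate number as a block, 5 members passed in hypoxia (Smad6 did not, adjusted p = 0.052), 3 with quercetin over hypoxia and 6 with quercetin against normoxia.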

Other observations

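Some genes of the pathway were left out above because the rule for naming genes did not pick them, and the following were chosen after their values were seen. Fstl3, a relative of follistatin, rose by 1.96 in hypoxia and fell by 1.08 with quercetin over hypoxia, the reverse of Fst. The Id4 probes gave -0.08 and -0.89 in hypoxia (adjusted p = 0.67 and 0.0022, limma), so neither probe rose with Id2. With quercetin over hypoxia they gave 0.38 and 1.26 (adjusted p = 0.052 and 3.8e-04, limma). Among the other targets a dimmer Msx2 probe rose in hypoxia by 0.69 and a dimmer Runx2 probe by 0.44 (adjusted p = 0.029 and 0.021, limma). Their brightest probes gave -0.19 and 0.08 and did not pass, nor did the remaining Runx2 probes.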
